A study of Mus musculus with 30 samples.

Results

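The bone morphogenetic protein (BMP), Nodal and TGF-beta signalling genes were described by their position relative to DNA replication initiation zones in mouse embryonic stem cells. Members were the protein-coding genes of chromosomes 1 to 19 with a symbol of the Bmp, Bmpr, Gdf, Smad, Acvr, Inhb, Tgfb or Tgfbr series, together with Nodal, Lefty1, Lefty2, Id1, Id2 and Id3. This gave 54 of 20558 protein-coding genes, and none was chosen by its distance to a zone. The cells were wild-type E14TG2a, an established line of mouse embryonic stem cells kept in 2i medium (GSK3 and MEK inhibitors) with LIF. A single OK-seq library, made after a pulse of 2 min with EdU at 10 µM, gave the list of 2844 zones. In OK-seq the strand of each Okazaki fragment tells which way a fork moved, which locates the places from which forks part. The other 29 of the 30 samples, SCAR-seq libraries of wild-type and MCM2-2A cells, were not analysed here. With 1 library there was no comparison of conditions, no replicate error and no test, and its depth is unknown because the list holds distances and no counts.

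Most ligands of this superfamily bind pairs of type I and type II serine/threonine kinase receptors, and the activated type I receptor phosphorylates a receptor-regulated Smad. That Smad joins Smad4 and enters the nucleus, where Id genes are well-known targets of the BMP branch. In embryonic stem cells the BMP branch is known for supporting self-renewal together with LIF, and the Nodal and activin branch for its part in leaving the naive state and in forming mesoderm and endoderm.

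Each zone is an interval with a left edge, a right edge and a breakpoint bin of 1 kb between them. A gene is called inside a zone when its start or its stop lies in the interval, and distances to a breakpoint run from the nearer gene end to the middle of the bin. Values below 1 kb are therefore under the resolution of the list. The distances from the breakpoint bin to each edge are called arms, and the width of a zone is the sum of both. They run from bin to bin, so a width is 1 kb less than the span of the printed edges. Coordinates are those of mm10, with gene positions from RefSeq for the same build (GRCm38.p6). Whether a breakpoint lies in an exon, an intron or a UTR was not analysed here.

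Many members, among them Nodal, both Lefty genes, Tgfb1, Id1 and 5 of the 8 Smad genes, reached into an initiation zone. An end of 25 of the 54 genes (46.3%, Wilson 95% interval 33.7 to 59.4%) lay inside a zone, where 32.4% of all protein-coding genes had one. The whole body lay inside for 14 members (25.9%), against 18.7% of all genes. No member had its nearest end between 0 and 20 kb outside a zone, where 1257 of the 20558 protein-coding genes had theirs. The count within 20 kb was therefore also 25, against 38.5% of all genes, a share that the interval of 33.7 to 59.4% held. The median member was 37.2 kb from a zone (95% order-statistic interval 0 to 103.3 kb), and the median protein-coding gene 71.2 kb. The interval of the median held the value of all genes. By start of transcription, listed for 37 members, the median was 117.5 kb for members (interval 2.785 to 203.9 kb) and 89.7 kb for all genes. The order of the medians thus turned, but this interval also held the value of all genes. The measure and the genes covered both changed here, and their parts were not told apart. Neighbours less than 500 kb apart were also joined into loci, with 1 member kept per locus, the leftmost by coordinate. Of these, 19 of 45 (42.2%, Wilson interval 29.0 to 56.7%) were inside, an interval that held the 32.4% of all genes. In each locus with members both inside and outside, the leftmost was outside, so no other choice of member would give a lower share. This count was chosen after the data were seen. Intervals treat genes as independent and cover counting error only.

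**Figure D1:**
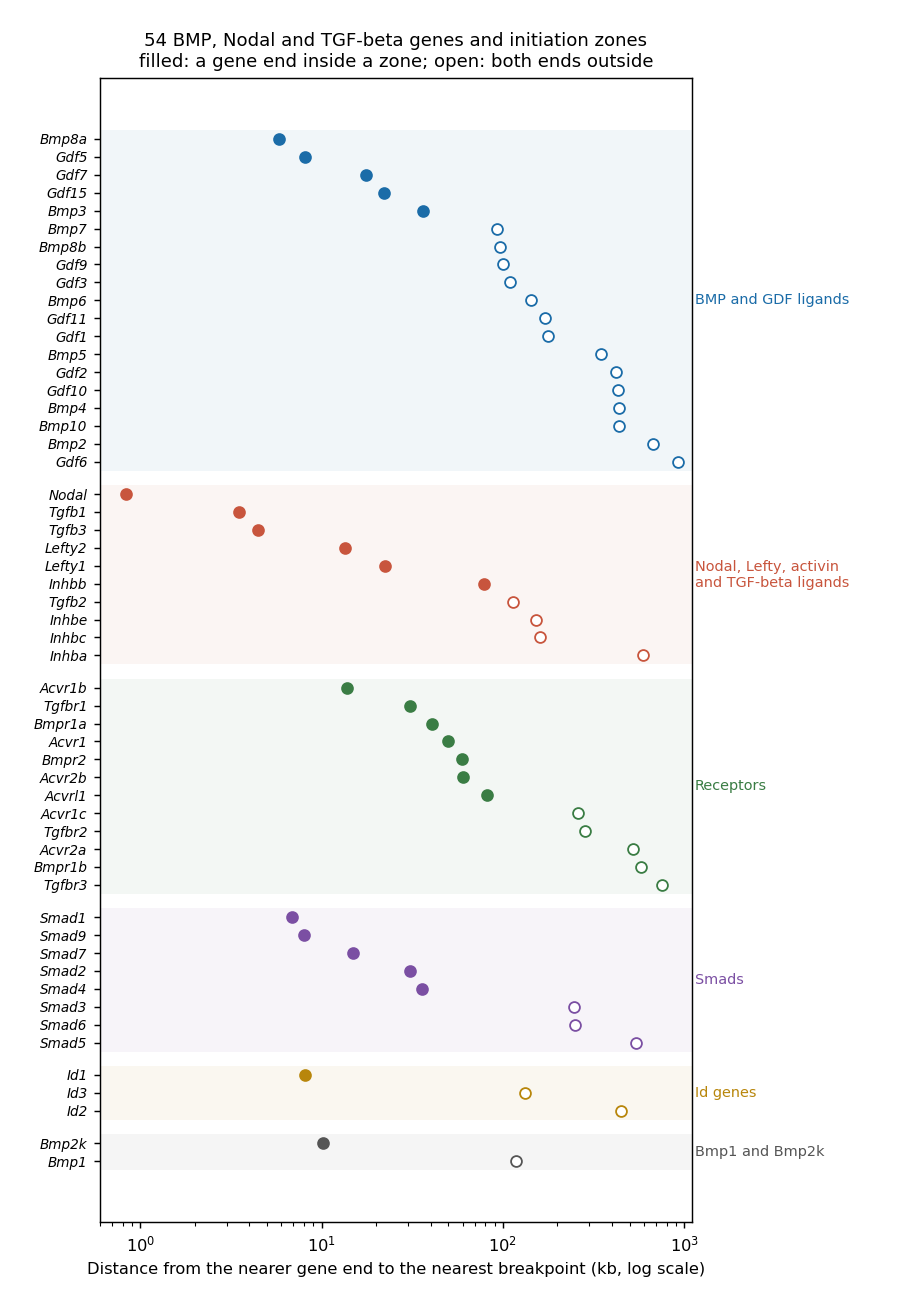
Distance in kb (log axis) from the nearer end of each of the 54 genes to the nearest breakpoint, by role; filled points have an end inside a zone. Nodal is nearest at 0.838 kb and Gdf6 farthest at 921.9 kb.

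The remaining 29 members were spread over a wide range of distances. There were 4 at 20 to 50 kb from a zone, 9 at 50 to 200 kb, 11 at 200 to 500 kb and 5 farther than 500 kb. Those 5 (9.26%, against 10.8% of all genes) were the ligand genes Gdf6, Bmp2 and Inhba at 825.4, 630.1 and 513.3 kb and the receptor genes Tgfbr3 and Acvr2a at 715.4 and 500.7 kb. Within 50, 200 and 500 kb of a zone lay 53.7, 70.4 and 90.7% of members, against 45.4, 70.6 and 89.2% of all genes. At 200 and 500 kb the members' shares were thus near those of all genes. Members included genes in the middle of zones as well as genes deep between them.

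Shares differed by role in these data, with few genes in each. The ligand genes were grouped by symbol, not by the branch through which each signals, so their shares do not compare branches. BMP and GDF ligand genes were inside a zone in 5 of 19 cases (26.3%, Wilson interval 11.8 to 48.8%). The Nodal, Lefty, activin and TGF-beta ligand genes were inside in 6 of 10 (60.0%, 31.3 to 83.2%), receptor genes in 7 of 12 (58.3%, 31.95 to 80.7%), and Smad genes in 5 of 8 (62.5%, 30.6 to 86.3%). Of the Id genes 1 of 3 was inside, and of the genes that match by symbol only, the protease gene Bmp1 and the kinase gene Bmp2k, 1 of 2. All these intervals overlapped each other, and all of them held the 32.4% of all genes. The difference between roles was not tested. The counts within 20 kb were the same (all genes 38.5%), and some depended on how genes and zones were taken. By gene midpoint, receptors within 20 kb were at 33.3% (all genes 29.95%), and without zones that have an arm at the 100 kb limit also at 33.3% (all genes 33.3%). With zones of at least the median width of 112 kb, Smads were at 25% and BMP and GDF ligands at 10.5% (all genes 23.4%).

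**Figure D2:**
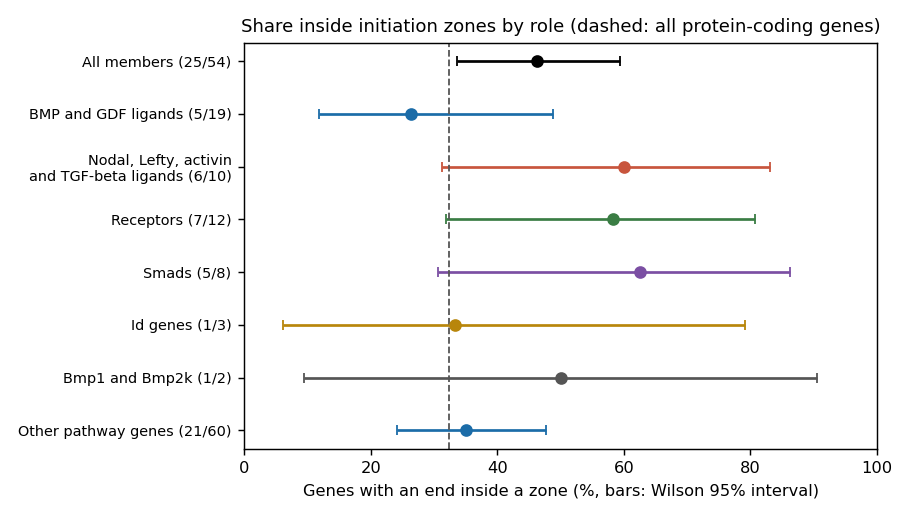
Percentage of genes with an end inside a zone by role, with the Wilson 95% interval; the dashed line marks all protein-coding genes at 32.4%. BMP and GDF ligands lie at 26.3%, and the other ligands, receptors and Smads between 58.3 and 62.5%.

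Nodal and both Lefty genes were inside zones, 3 genes in 2 zones. Nodal (chromosome 10, 61417972 to 61425338), which encodes the ligand that induces mesoderm and endoderm in the embryo, held a breakpoint in its body. Its right end lay 0.838 kb and its left end, the start of transcription, 6.53 kb from the middle of the bin, in a zone of 124 kb (61370001 to 61495000) with an end of 4 protein-coding genes. Lefty1 and Lefty2, which encode secreted antagonists of Nodal and are targets of its signal, shared a zone of 147 kb on chromosome 1 (180841001 to 180989000). Its breakpoint lay between them, with Lefty2 13.4 kb to the left and Lefty1 22.5 kb to the right, in the 35.9 kb between the genes.

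Of the TGF-beta ligand genes, Tgfb1 and Tgfb3 were inside zones and Tgfb2 was not. Tgfb1 (chromosome 7, 25687002 to 25705077) held a breakpoint 3.498 kb from its start and 14.6 kb from its stop, and its zone of 135 kb had an end of 8 protein-coding genes. Tgfb3 (chromosome 12) lay with its whole body left of a breakpoint, 4.46 kb away, in a zone of 142 kb. Tgfb2 (chromosome 1), a gene of 86.9 kb, was 74.8 kb from the nearest zone. The inhibin beta genes encode the subunits of activins and inhibins, and only Inhbb was inside a zone, near its left edge and 78.2 kb from the breakpoint. The neighbours Inhbe and Inhbc on chromosome 10 were 96.4 and 103.3 kb from a zone.

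Among the BMP ligand genes 2 of 9 were inside zones (32.4% of all genes), and Bmp2 and Bmp4 were not among them. Bmp8a (chromosome 4, 123312645 to 123343252) held a breakpoint 5.86 kb from its stop and 24.75 kb from its start. Bmp3, which encodes an atypical BMP that antagonises the others, lay wholly in a zone of chromosome 5, with 36.45 kb to the breakpoint. Bmp4, the BMP most often linked to stem cell self-renewal, was 335.3 kb and Bmp2 630.1 kb from any zone. Neither gene had another protein-coding gene within 250 kb. Bmp6, Bmp8b, Bmp7, Bmp5 and Bmp10 were 42.7, 44.3, 77.7, 302.4 and 364.5 kb from a zone.

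The growth differentiation factor genes showed a like split, with 3 of 10 inside (32.4% of all genes). Gdf5, known for its part in joint formation, lay 8.13 kb from a breakpoint of chromosome 2, in a narrow zone of 65 kb. Gdf7 (chromosome 12) and the stress-induced Gdf15 (chromosome 8) followed at 17.55 and 22.0 kb, both left of their breakpoints. The Gdf15 zone was crowded, with an end of 11 protein-coding genes, and the Gdf7 zone had 3. The 7 genes outside ranged from Gdf3, a ligand gene of pluripotent cells, at 56.9 kb to Gdf6 at 825.4 kb.

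Type I receptor genes reached into zones in 5 of 7 cases, type II receptor genes in 2 of 4, and the coreceptor gene Tgfbr3 did not. Over all protein-coding genes the share was 32.4%. These classes are small, were added later, and their difference was not tested. The type I receptor genes Acvr1b and Acvrl1, neighbours on chromosome 15, shared the widest of these zones, 188 kb (101127001 to 101316000). Acvr1b, the type I receptor gene of Nodal and activin, lay 13.8 kb and Acvrl1 82.2 kb left of the breakpoint. The TGF-beta type I receptor gene Tgfbr1 (chromosome 4) had its stop 30.6 kb from a breakpoint. The BMP type I receptor genes Bmpr1a (chromosome 14) and Acvr1 (chromosome 2) had an end 40.6 and 49.7 kb away. The type II receptor genes Bmpr2 and Acvr2b lay 59.8 and 60.1 kb from theirs.

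No receptor gene held a breakpoint in its body. Receptor genes were long, with a median of 89.8 kb against 17.6 kb over all genes. Of the 7 that reached a zone, 5 entered it with 1 end only and 2, Acvr1b and Acvrl1, lay wholly inside. The share of the body inside zones was 7.52% for Bmpr1a, 20.8% for Bmpr2, 25.6% for Acvr1, 42.0% for Tgfbr1 and 99.6% for Acvr2b. Outside zones were Acvr1c (178.1 kb), Tgfbr2 (236.6 kb), Bmpr1b (483.4 kb), Acvr2a (500.7 kb) and Tgfbr3 (715.4 kb). Each of these 5 genes was therefore much farther from a zone than the 20 kb limit.

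The Smad genes also divided into genes with an end inside a zone and genes more than 200 kb away. Smad9 (chromosome 3, 54755455 to 54801662), of the BMP branch, held a breakpoint 8.05 kb from its left end, and 83.4% of its body lay in the zone of 129 kb. Smad1, of the same branch, had its stop 6.89 kb right of a breakpoint on chromosome 8, in the narrowest zone with a member, 45 kb wide. Smad5, the remaining Smad of that branch, was 445.0 kb from a zone.

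The other Smads included 3 genes of chromosome 18, each in a zone of its own. Smad7, an inhibitory Smad, lay 14.9 kb from a breakpoint in a zone of 72 kb that held no end of another protein-coding gene. Smad2, which carries the Nodal and TGF-beta signal, was 30.6 kb from a breakpoint, and the common partner Smad4 35.7 kb, with 45.2 and 9.84% of their bodies inside. Smad3, which shares the role of Smad2, and the inhibitory Smad6, neighbours on chromosome 9 with 195.1 kb between them, lay 204.8 and 203.9 kb from zones.

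Id1, Id2 and Id3 encode inhibitors of basic helix-loop-helix factors and are induced by BMP. Id1 (chromosome 2, 152736251 to 152737410), a gene of 1.16 kb, lay 8.09 kb left of a breakpoint, wholly in a zone of 159 kb. Id3 was 31.6 kb and Id2 350.8 kb from a zone, so the 3 genes of this family covered a wide part of the range of distances. Bmp2k had its start 10.2 kb right of a breakpoint on chromosome 5, and Bmp1 was 27.3 kb from a zone on chromosome 14.

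**Figure D3:**
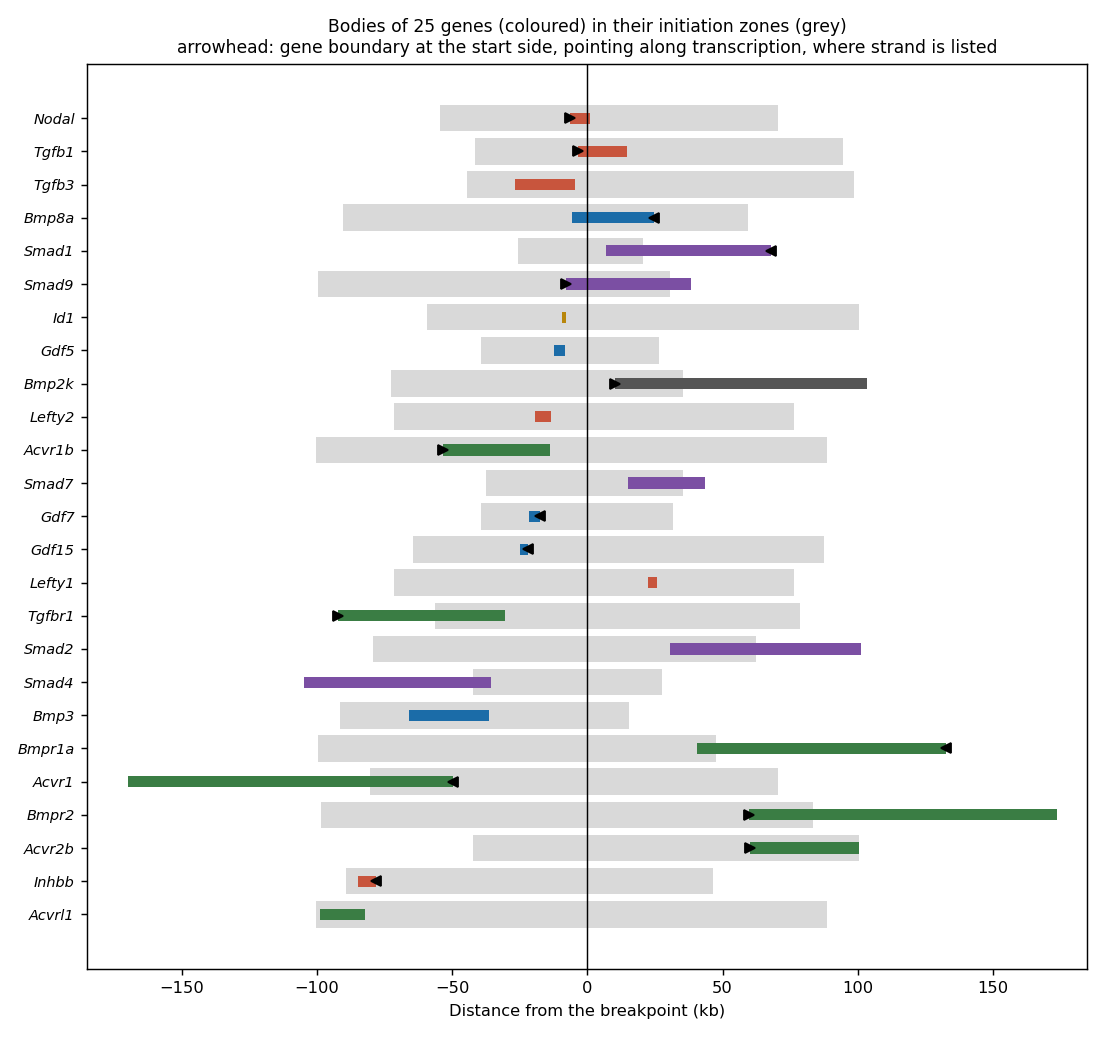
Bodies of the 25 genes inside zones (coloured by role as in the distance plot) and their zones (grey), aligned on the breakpoint at 0 kb; an arrowhead at the gene boundary gives the direction of transcription where strand is listed. The line at 0 crosses the bodies of Nodal, Tgfb1, Bmp8a and Smad9.

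Breakpoints fell in the bodies of 4 members, Nodal, Tgfb1, Bmp8a and Smad9 (7.41%, Wilson interval 2.92 to 17.6%), against 4.20% of all protein-coding genes. Among the 25 genes inside zones, 8 had an end within 10 kb of the breakpoint and 4 had both ends more than 50 kb from it, namely Bmpr2, Acvr2b, Inhbb and Acvrl1 at 59.8 to 82.2 kb. Both ends lay inside for 14 genes and 1 end for 11. Like counts over all genes inside zones are not given here, so these counts do not show a trait of the members. The median distance to a breakpoint was 17.55 kb for members within 20 kb of a zone and 27.7 kb for all such genes. The latter include genes outside zones, and the difference was not tested.

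The starts of Tgfb1, Nodal and Smad9 were the nearest to a breakpoint among the 37 members with a listed start, and the bases before them are shown because the breakpoint fell downstream, in the transcribed body. Tgfb3, with no listed start, has an end 4.46 kb from its breakpoint and could rank among them. They are given 5′ to 3′ on the transcribed strand, the + strand in each case, as the 250 bases before the start (RefSeq, GRCm38.p6). Capitals mark GGGCGG, the GC box bound by Sp factors, GGCGCC, a GC-rich motif of BMP-responsive elements, and CCAAT, searched on both strands with overlapping matches counted, so that CCGCCC and ATTGG are their reverse forms.
Tgfb1, chr7:25686752-25687001: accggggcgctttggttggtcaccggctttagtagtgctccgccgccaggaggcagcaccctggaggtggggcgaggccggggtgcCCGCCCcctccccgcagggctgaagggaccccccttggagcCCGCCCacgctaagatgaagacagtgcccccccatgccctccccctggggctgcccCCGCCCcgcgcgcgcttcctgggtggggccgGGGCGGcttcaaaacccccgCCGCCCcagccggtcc
Nodal, chr10:61417722-61417971: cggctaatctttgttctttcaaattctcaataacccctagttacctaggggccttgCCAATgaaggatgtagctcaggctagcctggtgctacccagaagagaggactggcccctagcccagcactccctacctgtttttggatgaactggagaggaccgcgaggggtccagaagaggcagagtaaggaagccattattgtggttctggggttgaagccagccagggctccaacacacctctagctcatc
Smad9, chr3:54755332-54755581: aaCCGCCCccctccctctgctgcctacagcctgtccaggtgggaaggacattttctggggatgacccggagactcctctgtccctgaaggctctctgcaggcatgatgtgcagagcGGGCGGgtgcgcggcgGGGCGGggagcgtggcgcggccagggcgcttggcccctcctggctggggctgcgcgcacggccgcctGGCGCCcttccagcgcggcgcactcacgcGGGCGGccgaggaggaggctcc
The Tgfb1 and Smad9 stretches were rich in G and C, at 75.2 and 73.2%, with 21 and 24 CpG and 5 and 4 GC boxes. The Nodal stretch had 53.2% G and C, 3 CpG and no GC box, and held a CCAAT at 1 place. Starts near breakpoints therefore included both kinds of promoter.

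Start windows of 300 bases, from 250 before to 50 after the start, were matched by gene ID for 37 of the 54 members and for 16457 of all protein-coding genes. Not matched were Tgfb3, Id1, Gdf5, Lefty1, Lefty2, Smad2, Smad4, Smad7, Bmp1, Bmp2, Bmp3, Bmp7, Gdf3, Gdf6, Gdf9, Acvrl1 and Tgfbr3. Where a gene had several starts, the one nearest to a zone was used. The start of 12 members (32.4%, Wilson interval 19.6 to 48.5%) lay inside a zone, against 28.0% of all genes, and of 13 (35.1%) within 20 kb, against 33.9%. For the same 37 genes, either end lay inside in 15 cases (40.5%), against 32.2% of all genes with a listed start. Smad1, Tgfbr1 and Bmpr1a were the 3 genes inside a zone by their stop only. Counted by starts, the members' share lay near that of all genes.

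In 11 of the members inside zones, strand was listed and the body lay wholly on 1 side of the breakpoint. Forks leave a breakpoint in both directions, so a gene with its start towards the breakpoint is transcribed the way the outgoing fork travels. This held for 7 of the 11 (63.6%, Wilson interval 35.4 to 84.8%), namely Bmp2k, Gdf7, Gdf15, Acvr1, Bmpr2, Acvr2b and Inhbb, and for 60.0% of 4733 such protein-coding genes. Smad1, Acvr1b, Tgfbr1 and Bmpr1a were transcribed towards the breakpoint. The members' share was close to that of all genes. This count was added after the data were seen.

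Members' start windows were richer in G and C than those of all genes, both near zones and away from them. The median was 68.0% in the 13 members with a start within 20 kb of a zone and 63.2% in the 24 others, against 60.0 and 54.3% over all genes with a near or a distant start. The counts of CpG followed the same order, with medians of 26 and 20 in the members and 19 and 9 in all genes. Among the members near zones, Acvr1 (83.7%), Bmp2k (83.3%) and Acvr1b (79.7%) were highest and Tgfbr1 (52.0%, at its start nearest to the zone) lowest.

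**Figure D4:**
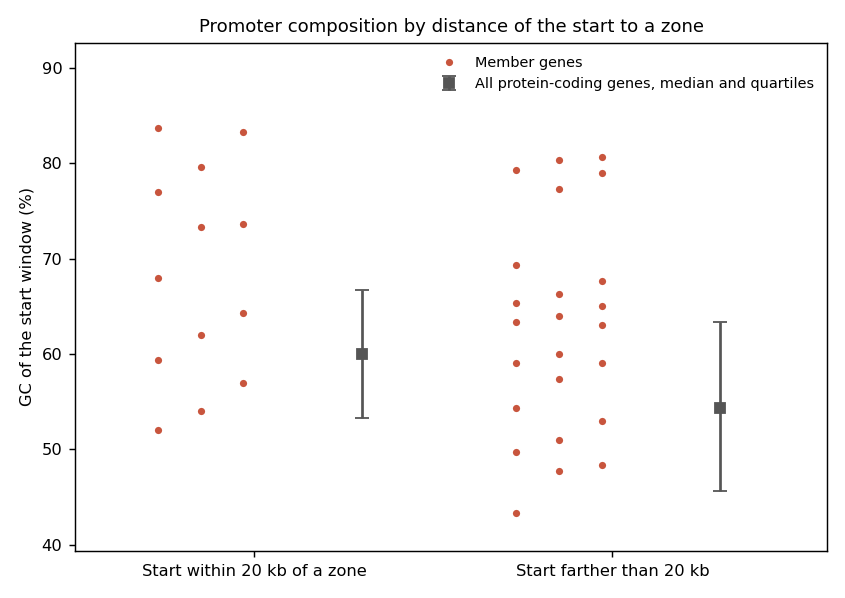
G and C content (%) of the 300-base start window for members (points, offset sideways for clarity) with a start within 20 kb of a zone (13) or farther (24), beside the median and quartiles of all protein-coding genes (squares, bars). Member medians are 68.0 and 63.2%, and those of all genes 60.0 and 54.3%.

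The GC box GGGCGG occurred in 25 of the 37 windows (67.6%), against 46.9% of all genes, and GGCGCC in 8 (21.6%), against 15.8%. GTCT, the core of Smad binding sites, and its reverse AGAC occurred in 33 windows (89.2%), against 87.1%, so nearly any window of this length holds it. CCAAT was in 14 windows (37.8%), against 38.8%, and TATAAA in 5 (13.5%), against 13.6%. None of the 13 windows near zones held TATAAA, against 8.84% of all genes with a near start. All were searched on both strands, and a match describes letters in the window only.

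Zones with a member end numbered 23 and were wider than most. Their median width was 135 kb (quartiles 106.5 and 148 kb, range 45 to 188 kb), against 112 kb over all zones and 116 kb over the 2395 zones with an end of any protein-coding gene. They held an end of a median of 4 protein-coding genes, members included, against 2 in the latter zones. These zones were taken because they hold a member, and a zone with more gene ends is more likely to hold one. This count therefore does not show a trait of the members' zones. An arm reached the 100 kb at which arms stop in 3 of them, those of Id1, Acvr2b and the pair Acvrl1 and Acvr1b. A wider zone meets more gene ends, and how much of the difference this accounts for was not tested.

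Some members are neighbours and share their surroundings. With members less than 500 kb apart joined, the 54 genes fell into 45 loci, of which 8 held several members. Lefty1 with Lefty2 and Acvrl1 with Acvr1b shared a zone, whereas Inhbe with Inhbc and Smad3 with Smad6 were all outside. In the other loci only part of the members was inside. Acvr1 was inside and Acvr1c, 88.5 kb away, was not; Bmp8a was inside and Bmp8b, 186.6 kb away, was not. Gdf15 was inside and Gdf1 was not, with 297.8 kb between them, and Bmpr1a was inside while Gdf2 and Gdf10, with 463.9 kb to the nearer of them, were outside.

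The share of members within 20 kb of a zone was read beside genes of like surroundings and length. With up to 6 protein-coding genes within 250 kb it was 12 of 26 (46.2%), against 39.4% of all such genes. With 7 to 13 it was 9 of 18 (50.0%), against 40.5%, and with 14 or more 4 of 10 (40.0%), against 35.6%. Among genes up to 9.14 kb long, 8 of 16 members (50.0%) were near, against 28.3% of all genes. It was 6 of 14 (42.9%, against 40.6%) up to 31.8 kb and 11 of 24 (45.8%, against 46.7%) beyond. Members were longer than most genes, with a median of 28.0 kb against 17.6 kb. In the class of longest genes their share did not exceed that of all genes.

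Other genes of the pathway, a list of 60 antagonists, coreceptors, processing proteins, intracellular partners and targets without the members, had an end inside a zone in 21 cases (35.0%, Wilson interval 24.2 to 47.6%) and within 20 kb in 24 (40.0%, 28.6 to 52.6%). These shares lay near those of all genes, 32.4 and 38.5%. Their median distance to a zone was 63.8 kb.

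**Figure D5:**
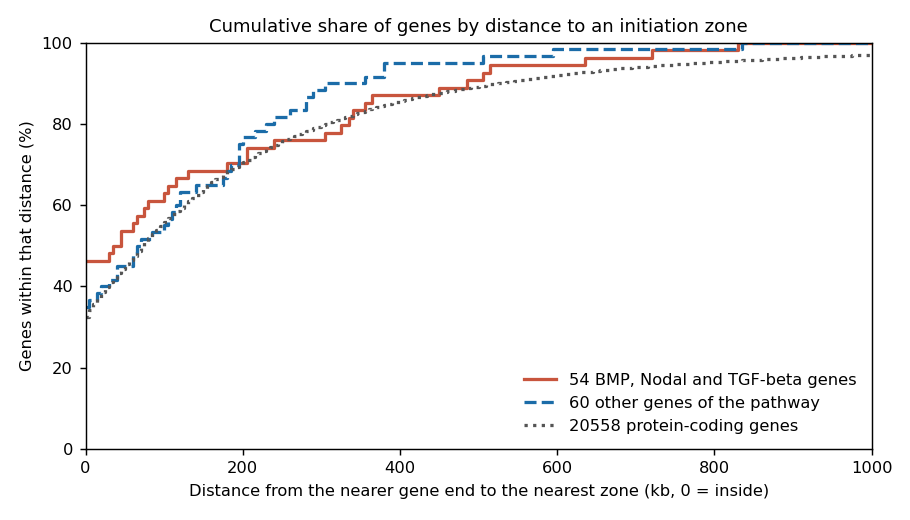
Cumulative percentage of genes within a given distance (kb) of a zone, for the 54 members, the 60 other pathway genes and all 20558 protein-coding genes. The members start at 46.3% at 0 kb, above 35.0 and 32.4%, and the 3 lines are near each other at 180 kb (70.4, 68.3 and 68.3%). At 300 kb the other pathway genes lie above both, at 88.3% against 75.9 and 79.7%.

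Within that list, intracellular partners were inside zones in 10 of 19 cases (52.6%, Wilson interval 31.7 to 72.7%, which held the 32.4% of all genes). They included the ubiquitin ligase genes Trim33 and Smurf1 (6.73 and 12.6 kb from a breakpoint), Fkbp1a, whose product binds type I receptors (7.19 kb), and Pmepa1, a negative regulator gene of TGF-beta signalling (22.8 kb). Tgif2, a corepressor gene, was farthest at 378.8 kb from a zone. Extracellular antagonists were inside in 6 of 15 (40.0%, 19.8 to 64.25%). Chrdl2, a chordin-like gene that held 2 breakpoints, Dand5, a Nodal antagonist gene, the BMP-binding Twsg1 and the activin-binding Fst lay 2.10, 2.24, 16.6 and 55.8 kb from a breakpoint, and Cer1, another Nodal antagonist gene, was 304.8 kb from a zone. Coreceptor and decoy genes, counted together with the receptor gene Amhr2, were inside in 3 of 9 (33.3%, 12.1 to 64.6%). These were the Nodal coreceptor gene Tdgf1 (2.66 kb), the BMP coreceptor gene Hjv (36.3 kb) and Amhr2, for the receptor of anti-Müllerian hormone (60.5 kb). Tgfbr3l was farthest at 592.2 kb.

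None of the 8 genes for latency and processing of ligands was inside a zone. These genes, which include the latent TGF-beta binding proteins and the convertase Furin, lay between 62.4 kb (Ltbp2) and 832.9 kb (Thbs1) from a zone. Of 3 other ligand genes Inha, for the inhibin alpha subunit, was inside, 8.13 kb from a breakpoint, and Mstn, which encodes myostatin, was farthest at 213.9 kb. Of 6 target genes Id4 was inside at 15.6 kb and Msx1 farthest at 379.4 kb. A count of 0 of 8 has a Wilson upper bound of 32.4%, the share of all genes inside zones.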

How the data were processed

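One OK-seq library of wild-type E14TG2a cells was used. The submitters' processing notes name the build mm10 and, with no role or order, SAMtools, Picard 2.8.2, Bowtie, BWA 0.7.13, Trim Galore 0.4.2 and bcl2fastq. The zone caller and its thresholds are not stated in the sources used here. The deposited values are distances in bp between bins of 1 kb, with no counts or signal, and arms stop at 100 kb. The isolation of Okazaki fragments and the treatment of reads with several matches are likewise not stated.

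Gene positions and start windows came from RefSeq tables (GRCm38.p6), without exons. Genes on scaffolds were left out. Shares have Wilson 95% intervals, and medians order-statistic intervals (Python 3.11.15, scipy 1.17.1). The distance code was tested on simulated zones. The members, gene lists, naming rule and tests were chosen with earlier results of these data known, so no list is independent support. Every member could be named; other pathway genes were named by nearness (up to 4 per group inside a zone) and the farthest per group. The division by receptor and Smad class, loci, orientation and surroundings was added later. Alternatives are in the closing section.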

Additional observations from a re-analysis of the deposited data

How the results depend on the processing

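No paired analysis was possible because 1 library was analysed and no result comes from a test. The members' share within 20 kb of a zone (46.3%) ranged from 33.3 to 53.7% over 11 alternatives. It lay above all genes under each, by 1.23 (start of transcription) to 12.1 percentage points (limit of 5 kb). As reported and under each alternative, the Wilson interval held the share of all genes. The alternatives count largely the same genes, so they are not independent of each other. The members' share fell outside its reported interval when zones narrower than the median of 112 kb were dropped, called wide zones here (33.3%, all genes 23.4%). The share inside a zone (46.3%) moved to 33.3% with wide zones (all genes 20.1%), 31.5% by gene midpoint (22.5%), 32.4% by start of transcription (28.0%) and 29.6% in the central part of zones (18.4%). The median distance of 37.2 kb (all genes 71.2 kb) moved to 165.9 kb with wide zones (254.5 kb). Without zones that have an arm at the 100 kb limit it was 99.9 kb, near the 106.1 kb of all genes. By start of transcription it was 117.5 kb, farther than the 89.7 kb of all genes, but its interval of 2.785 to 203.9 kb held that value. With 1 member per locus, an alternative chosen after seeing the data, the share inside was 42.2% (interval 29.0 to 56.7%, all genes 32.4%). The difference from all genes within 20 kb was then 3.69 percentage points, against 7.77 with all members. The leftmost member was kept, and no other choice of member would give a lower share. The share of other pathway genes within 20 kb (40.0%) moved to 28.3% within 50 kb of a breakpoint (29.1%) and 21.7% with wide zones (23.4%). With wide zones BMP and GDF ligands near a zone fell to 10.5% and Smads to 25%; with zones at the arm limit left out, receptors and all genes were both at 33.3%, and by gene midpoint receptors were at 33.3% (29.95%). The share with a breakpoint in the body was 7.41% with wide zones (all genes 2.17%) and with zones less than 10 kb apart merged (4.11%). With gene bodies extended by 5 kb it was 9.26% (6.825%). The Wilson interval held the share of all genes except with wide zones (2.92 to 17.6%), and these shares rest on few genes. The list holds no depth, and without strand for 17 members the start of transcription covers part of the list.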

Other observations

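Members in sparse surroundings were set beside the rest, a split chosen after the values were seen. With at most 2 protein-coding genes within 250 kb, 4 of 13 members (30.8%) had an end inside a zone, close to 29.0% of all such genes. These 4 were Smad2, Smad7, Bmp3 and Acvr1. The median distance of the 13 was 335.3 kb, against 174.1 kb over all genes in such places, and they included Bmp2, Bmp4, Inhba, Gdf6, Id2, Tgfb2, Tgfbr2, Bmpr1b and Acvr2a. With more than 2 neighbours, 21 of 41 members (51.2%) had an end inside, against 32.7% of all genes. No test was made of the difference.

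Among other pathway genes with an end inside a zone, strand listed and the body on 1 side of the breakpoint, 11 of 13 (84.6%, Wilson interval 57.8 to 95.7%) had their start towards the breakpoint, against 60.0% of all such genes. The 2 exceptions were Inha and Twsg1. The interval held the 60.0% of all genes, the difference was not tested, and the count was added after the data were seen.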
